A study of Mus musculus with 24 samples.

Results

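The voltage-gated ion channel genes of the mouse dorsal hippocampus were examined as a group of 38 listed genes among the 19661 genes of an RNA sequencing table. The genes were taken by name from a list drawn up with earlier results of these data known, and the rule itself uses no measured value. It holds 7 sodium channel genes (4 for pore subunits and 3 for auxiliary beta subunits), 17 potassium channel genes, 2 HCN genes and 12 calcium channel genes (8 for pore subunits and 4 for auxiliary beta subunits). All 38 were found in the table, and 37 had a mean of at least 1 RPKM (reads per kilobase of transcript and per M mapped reads) over the 24 libraries and were tested. The gene that did not pass this filter was Hcn4.

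Each library came from 1 mouse, and the 4 groups held 6 mice each. C57BL/6J mice of wild-type genotype were killed either directly from the home cage or 30 minutes after they had been trained on object location memory, a task in which a mouse learns where objects stand in an arena. Baf53b+/- mice, with B6J and 129S6 named in their strain background, carry 1 copy of the targeted allele Actl6b<tm1Grc> and were taken in the same conditions. Strain background goes with genotype in every genotype comparison, so strain and the dose of BAF53b cannot be told apart. Home cage mice are the only controls, so handling, the arena, its objects and learning cannot be told apart either, and no age is given in the labels. BAF53b, encoded by Actl6b, is a neuron-specific subunit of a chromatin remodelling complex. The design asks whether expression after learning differs with its dose.

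Voltage-gated sodium channels start the action potential, potassium channels end it and set the firing rate, and calcium channels turn it into transmitter release and intracellular signals. HCN channels open on hyperpolarization and carry a current that sets resting excitability, while calcium-activated potassium channels carry the afterhyperpolarization. In the hippocampus these genes are divided among pyramidal cells, granule cells of the dentate gyrus and interneurons, and several of the channels are named in models of synaptic plasticity.

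The labels were checked first. Actl6b had a mean of 51.3 ± 1.26 RPKM in wild-type and 30.0 ± 1.44 in heterozygous home cage mice (SD, n = 6 each), and 50.8 ± 2.65 against 28.3 ± 1.47 RPKM after training. The genotypes did not overlap in either condition (two-sided exact permutation p = 0.00216, the smallest that 6 against 6 can give). Fos, a marker of recent neuronal activity, rose after training by 2.63 on the log2 scale in wild-type and by 2.49 in heterozygous mice (limma, adjusted p = 2.75e-09 and 5.76e-09). Depth, recovered from the steps in the RPKM values of single-exon genes, ran from 28.4 to 46.9 M reads per library. Hippocampal markers were present in every library, with Wfs1 of CA1 at 46.7 to 82.3 RPKM and Prox1 of the dentate gyrus at 13.3 to 33.9. A total of 6 libraries carried more choroid plexus RNA than the rest (1, 1, 2 and 2 in the wild-type home cage, wild-type trained, heterozygous home cage and heterozygous trained groups). Animals 2418, 2421 and 2415, from the first 3 of those groups, stood low on dentate gyrus markers. By the Y-linked gene Ddx3y the groups held 3, 3, 5 and 3 males.

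Sodium channel pore genes were led by Scn8a and Scn2a1, which encode the main channels of the axon initial segment of excitatory neurons. Over the 24 libraries Scn8a had a mean of 48.1 RPKM and made up 43.5% of the summed pore RPKM, and Scn2a1 had 43.4 RPKM, or 39.2%. Scn8a was above Scn2a1 in 23 of 24 libraries. Scn1a, the channel best known in fast-spiking interneurons, had 13.1 RPKM and Scn3a, best known from embryonic brain, had 5.95. These levels per length put the pore genes in the same order, Scn2a1 above Scn1a above Scn3a, in 24 of 24 libraries. The summed pore level lay between 101.6 and 116.4 RPKM in all libraries.

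The sodium beta subunits, which bind the pore and shape its gating and its place in the membrane, differed widely in level. Scn3b, at 88.6 RPKM, was the most abundant of all 38 genes, and Scn2b followed at 68.8 RPKM. Scn4b, which is tied to resurgent sodium current, had 7.79 RPKM. Scn2b also had the least spread of the 38, with a coefficient of variation of 3.16% over the 24 libraries, whereas that of Scn4b was 18.2%. The median coefficient over the 37 tested channel genes was 8.46%, beside 7.13% over all 12399 genes tested.

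Among the 17 potassium channel genes, the Kv1 family made up 23.0% of the summed RPKM, Kv3 21.8%, Kv4 19.4%, the calcium-activated channels 15.1%, Kv7 13.9%, the EAG and ERG channels 5.68% and Kv2 1.09%. Kcnd2, the A-type channel of pyramidal and granule cell dendrites, was the highest at 38.1 RPKM. Kcna1, an axonal low-threshold channel, was next at 37.1 RPKM, and Kcnd2 was above it in only 16 of 24 libraries. Kcnc1, a high-threshold channel of fast-spiking cells, had 26.7 RPKM. Kcnq3, a subunit of the M-current channel that restrains repetitive firing, had 22.6 RPKM.

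A run of 7 potassium channel genes lay close together, from Kcnn2 at 20.6 RPKM through Kcnc4, Kcna2, Kcnq5, Kcnd3 and Kcnc2 to Kcnma1 at 14.6. Kcnn2 is a small-conductance and Kcnma1 the large-conductance calcium-activated channel. Neighbours in this run often changed places, since Kcnc4 was above Kcna2 in 12, Kcnq5 above Kcnd3 in 13 and Kcnc2 above Kcnma1 in 13 of 24 libraries. Below them were Kcnh1 of the EAG family (9.70 RPKM), the A-type Kcna4 (8.61), the ERG-type Kcnh7 (6.17) and Kcnn1 (4.38). Kcnb2, a delayed rectifier, and Kcnn3 were the lowest tested members, at 3.05 and 2.55 RPKM.

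Of the HCN genes, Hcn2 had a mean of 48.6 RPKM and Hcn4 0.402. The highest Hcn4 value was 0.731 RPKM in animal 2415, in the heterozygous home cage group. Hcn2 had a median of 48.0 RPKM in wild-type and 48.2 in heterozygous home cage mice, and 49.2 and 49.0 after training.

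Among the calcium channel pore genes the Cav2 family of presynaptic channels made up 58.9% of the summed RPKM, the low-threshold Cav3 family 27.7% and the L-type Cav1 family 13.3%. Cacna1a, the P/Q-type channel of fast transmitter release, had 29.0 RPKM, the R-type Cacna1e 26.5 and the N-type Cacna1b 12.9. Of the T-type genes, Cacna1h had 20.1, Cacna1i 7.10 and Cacna1g 4.99 RPKM. The L-type genes Cacna1c and Cacna1d had 9.77 and 5.71 RPKM. Cacna1a was above Cacna1e in 20 of 24 libraries and Cacna1d above Cacna1g in 19, and other neighbours kept their order in at least 23. Among the calcium beta subunits, which carry the pore to the membrane, Cacnb3 (67.4 RPKM) and Cacnb1 (50.0) exceeded Cacnb4 (19.8) and Cacnb2 (19.1) in every library. The library kit keeps no strand, so the reads of Cacna1c and Cacna1d cannot be told apart from those of Dcp1b (3.89 RPKM) and Dcp1a (4.64 RPKM) where the deposited positions of these genes overlap.

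**Figure D1:**
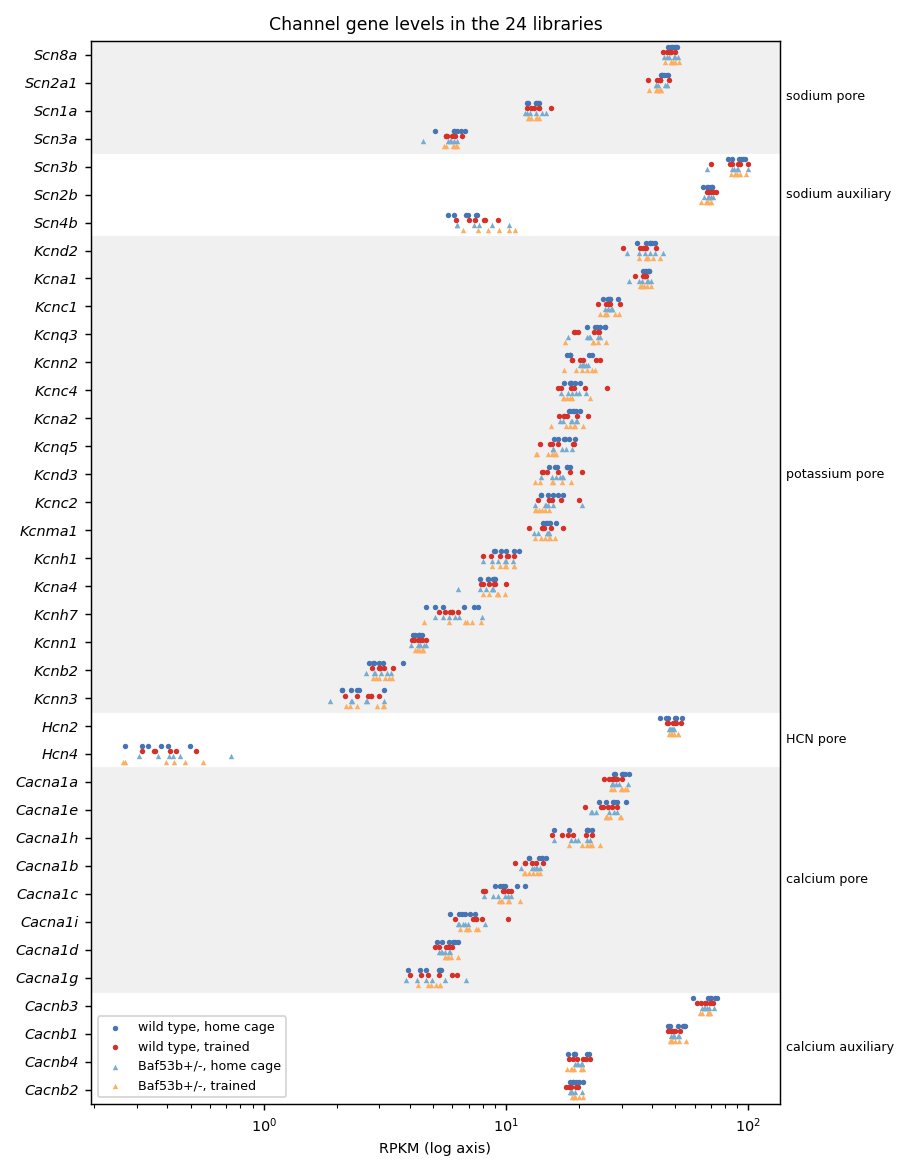
RPKM of the 38 channel genes on a log axis, with 1 point per library and colour and shape for the 4 groups, ordered by class and mean level. The spread within a group is small beside the distance between high and low genes, from Scn3b at 88.6 to Hcn4 at 0.402 RPKM, and the groups lie on top of each other.

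The first question was whether training altered channel expression in wild-type mice. By limma on log2(RPKM + 0.5) with Benjamini-Hochberg adjustment, 0 of 37 channel genes were called at an adjusted p under 0.05, where 1.08% of all genes were. At an unadjusted p under 0.05 there were 2 (Cacna1a and Cacna1i), or 1 in each direction, beside 11.1% of all genes. No channel gene had groups that did not overlap, against 1.24% of all genes. The median difference, trained minus home cage, was -0.05 on the log2 scale over the channel genes and 0.01 over all genes, and 23 of 37 differences were negative (62.2%, beside 43% of all genes). All 37 intervals at 95% confidence lay inside a 1.5-fold change, and 34 of them inside 1.25-fold. Of the 12399 genes tested, 12073 and 11019 had intervals inside these bounds. In bulk tissue a gene's level depends on both the number of cells that express it and the RNA per cell, which cannot be told apart.

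Cacna1a (chromosome 8, 86939263 to 87164148 in mm9) had the smallest p. Its lowest, median and highest values were 27.9, 30.3 and 32.1 RPKM in home cage and 25.4, 27.7 and 29.9 in trained wild-type mice. The trained group was the lower by its median, and the ranges overlapped. The difference was -0.11 (SE 0.05, 95% interval -0.21 to -0.02, limma adjusted p = 0.341).

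The T-type gene Cacna1i (chromosome 15, 80117668 to 80228722 in mm9) ran from 5.86 through a median of 6.66 to 7.41 RPKM in home cage mice and from 6.15 through 7.50 to 10.2 in trained mice. One trained animal, 2421, held the highest value, and the other 5 reached at most 7.92 RPKM. The difference was 0.19 (SE 0.08, limma adjusted p = 0.35), and 0.11 without animal 2421. That animal was also low on dentate markers, and with the dentate score as a covariate (described with the slopes) the difference was 0.15.

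The N-type Cacna1b and the M-channel gene Kcnq3 followed by p. Cacna1b had medians of 13.8 RPKM in home cage and 12.4 in trained mice, with ranges of 12.4 to 14.6 and 10.9 to 14.2. Its difference was -0.11 (SE 0.06, limma adjusted p = 0.475), -0.07 without the trained animal 2436 and -0.17 without the 3 animals low on dentate markers. Kcnq3 had medians of 24.02 and 21.3 RPKM, with ranges of 21.7 to 25.7 and 19.1 to 24.3. Its difference was -0.16 (SE 0.08, limma adjusted p = 0.496). In both genes the groups overlapped over most of their range.

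By class, the median training difference in wild-type mice was -0.10 for the 8 calcium pore genes, of which 6 were negative, and -0.05 for the 4 calcium beta genes, of which 3 were. It was -0.04 for the 4 sodium pore genes, 0.03 for the 3 sodium beta genes, -0.04 for the 17 potassium genes and 0.03 for Hcn2. The summed calcium pore level was 118.8 ± 8.02 RPKM in home cage and 112.5 ± 5.74 in trained mice (SD, n = 6), and ran from 108.7 to 129.5 and from 104.0 to 119.4. In the same comparison the 14 dentate markers had a median difference of -0.11 and the 14 interneuron markers of 0.08, with 0 called in either list, and their part in the class medians was not tested.

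In Baf53b+/- mice, 0 of 37 channel genes were called after training, where 1.03% of all genes were, and 2 (Kcnq5 and Kcna4) had an unadjusted p under 0.05, beside 11% of all genes. Groups that did not overlap were found for 0 channel genes and 1.33% of all genes. The median difference was 0.02, beside -0.0014 over all genes, with 14 of 37 negative (37.8%, beside 50.7% of all genes). All 37 intervals lay inside a 1.5-fold change and 35 inside 1.25-fold, beside 12106 and 10988 of all 12399 genes.

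Kcnq5 (chromosome 1, 21388484 to 21952023 in mm9), another M-channel subunit, had 15.6, 16.3 and 18.8 RPKM as its lowest, median and highest value in heterozygous home cage mice and 13.3, 15.2 and 16.0 after training. The trained mice lay lower, with overlap between the lowest home cage and the highest trained values. The difference was -0.17 (SE 0.07, 95% interval -0.31 to -0.02, limma adjusted p = 0.36). In wild-type mice the Kcnq5 difference was -0.08.

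Kcna4 had 6.35, 8.50 and 8.85 RPKM in home cage mice and 8.07, 9.22 and 9.91 in trained ones. Its lowest value belonged to animal 2415, which was low on dentate markers. The difference was 0.15 (SE 0.07, limma adjusted p = 0.425) and 0.08 without that animal.

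Kcnc2, a Kv3 channel of fast-spiking interneurons, ran from 13.1 through 14.7 to 20.6 RPKM in home cage mice and from 13.2 through 13.9 to 15.0 in trained ones. Animal 2415 held the 20.6 RPKM, and the other 5 home cage mice reached at most 15.7. The difference of -0.14 (SE 0.09, limma adjusted p = 0.584) was -0.06 without that animal and -0.05 with the dentate score in the fit. Cacna1e had medians of 25.1 and 26.5 RPKM and a difference of 0.12 (SE 0.07, limma adjusted p = 0.593), which was 0.04 without the 6 libraries rich in choroid plexus markers. Of the classes, the 8 calcium pore genes had a median difference of 0.06 with 2 negative, and the 3 sodium beta genes also had 0.06. It was -0.0007 for the 4 calcium beta genes, 0.02 for the 17 potassium genes, -0.0006 for the 4 sodium pore genes and 0.03 for Hcn2. The dentate markers had a median difference of 0.13 and the interneuron markers of -0.01, with 0 called, and their part in the class medians was not tested.

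**Figure D2:**
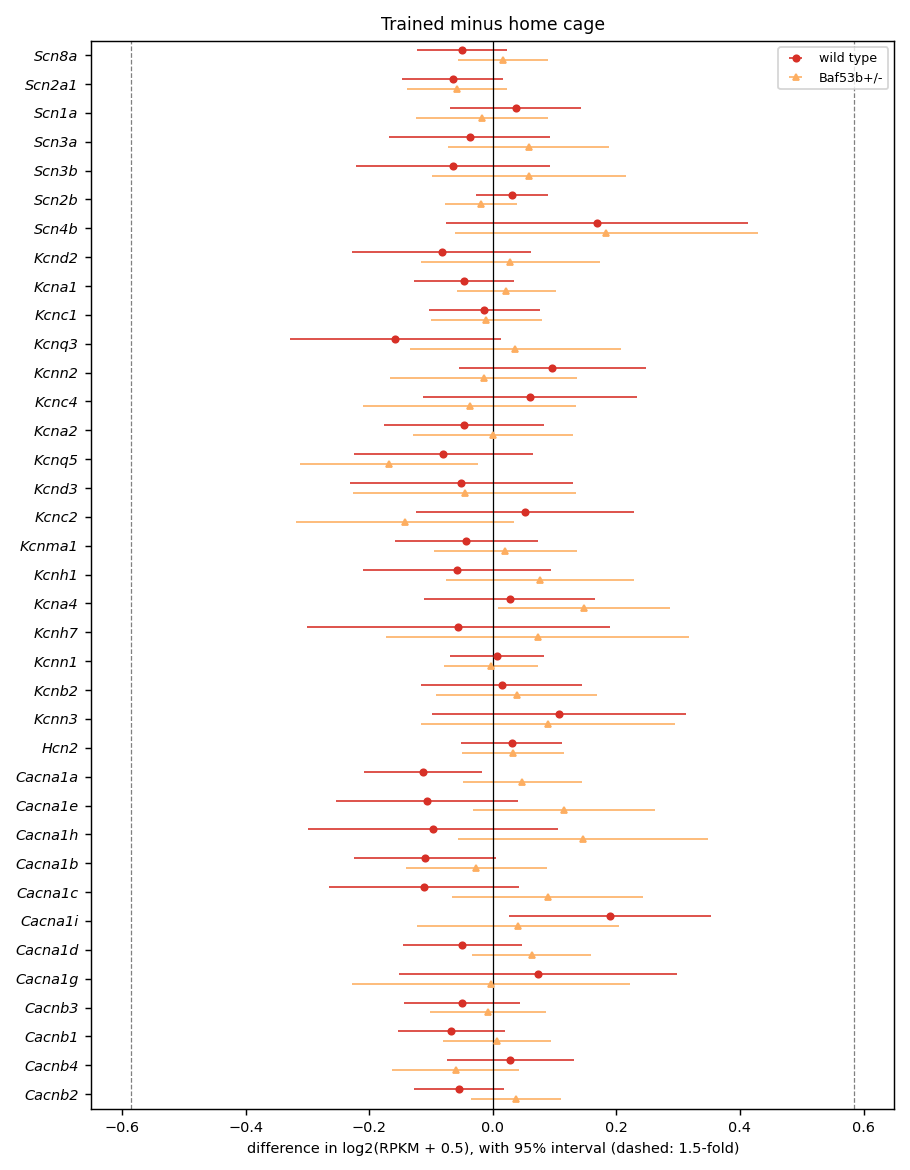
Difference between trained and home cage mice in log2(RPKM + 0.5) for the 37 tested channel genes, with 95% intervals from limma, in wild-type (circles) and Baf53b+/- mice (triangles). All intervals lie inside the dashed lines at a 1.5-fold change, and most include 0.

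The genotype comparison in the home cage asked whether the reduced BAF53b dose goes with altered channel expression at rest. None of the 37 channel genes was called by limma, where 0.00807% of all genes were (1 gene, Actl6b itself). At an unadjusted p under 0.05 there were 0 channel genes, beside 3.52% of all genes. Groups did not overlap for 0 channel genes and 0.0565% of all genes. The median difference, Baf53b+/- minus wild type, was -0.03, beside 0.0047 over all genes, with 25 of 37 negative (67.6%, beside 46.2% of all genes). The 14 dentate markers had a median difference of -0.12 and the 14 interneuron markers of 0.04, with 0 called. Their part in the signs of the channel genes was not tested. All 37 channel gene intervals lay inside a 1.5-fold change and 36 inside 1.25-fold, the exception being Scn4b. Over all 12399 genes the counts were 12108 and 11232.

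Cacna1e (chromosome 1, 156239649 to 156573050 in mm9) had 24.2, 27.7 and 31.3 RPKM as its lowest, median and highest value in wild-type and 22.5, 25.1 and 28.6 in heterozygous home cage mice. The heterozygotes were the lower by their median, with a wide overlap, and the difference was -0.12 (SE 0.07, limma adjusted p = 0.999), or -0.08 without the 6 libraries rich in choroid plexus markers. Kcnq3 had medians of 24.02 and 22.1 RPKM and a difference of -0.13 (SE 0.08, limma adjusted p = 0.999), which was -0.07 without animal 2415. Scn3a had medians of 6.17 and 5.90 RPKM. Its difference of -0.09 (SE 0.06, limma adjusted p = 0.999) was -0.03 without animal 2415, whose 4.56 RPKM was the lowest of all 24 libraries, and -0.14 without the wild-type animal 2418.

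Scn4b had 5.78, 6.89 and 7.57 RPKM in wild-type and 6.28, 7.54 and 10.3 in heterozygous home cage mice. Its difference of 0.17 had the 95% interval that reached farthest from 0 among the channel genes, from -0.08 to 0.41 (SE 0.12, limma adjusted p = 0.999), and was 0.09 without animal 2417. After training the medians were 7.77 and 8.90 RPKM, and the genotype difference was 0.18.

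After training, 0 of 37 channel genes were called between genotypes, where 0.00807% of all genes were, again Actl6b alone. Of the channel genes 2 (Kcnc2 and Cacna1a) had an unadjusted p under 0.05, beside 3.69% of all genes. Groups did not overlap for 0 channel genes and 0.226% of all genes. The median difference was 0.01, beside -0.0045 over all genes, with 12 of 37 negative (32.4%, beside 53.3%). It was 0.12 for the 14 dentate markers and -0.06 for the 14 interneuron markers, with 0 called. The part of these markers in the signs of the channel genes was not tested. All 37 channel gene intervals lay inside a 1.5-fold change and 33 inside 1.25-fold, beside 12141 and 11229 of all 12399 genes.

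Kcnc2 (chromosome 10, 111708179 to 111903360 in mm9) had 13.6, 15.2 and 19.9 RPKM in wild-type trained and 13.2, 13.9 and 15.0 in heterozygous trained mice. The wild-type animal 2421 held the highest value, and the rest overlapped. The difference was -0.18 (SE 0.09, 95% interval -0.36 to -0.01, limma adjusted p = 0.993), and -0.12 without that animal. Cacna1a had 25.4, 27.7 and 29.9 RPKM in wild-type and 27.2, 30.0 and 31.7 in heterozygous trained mice, a difference of 0.10 (SE 0.05, limma adjusted p = 0.993).

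Kcnq5 and the T-type gene Cacna1h came next by p after training. Kcnq5 had medians of 15.9 and 15.2 RPKM, and its difference was -0.14 (SE 0.07, limma adjusted p = 0.993). Cacna1h had 15.4, 18.5 and 22.6 RPKM in wild-type and 18.2, 21.9 and 24.4 in heterozygous trained mice. Its difference was 0.19 (SE 0.10, limma adjusted p = 0.993) and 0.11 with the dentate score in the fit. Both pairs of groups overlapped.

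**Figure D3:**
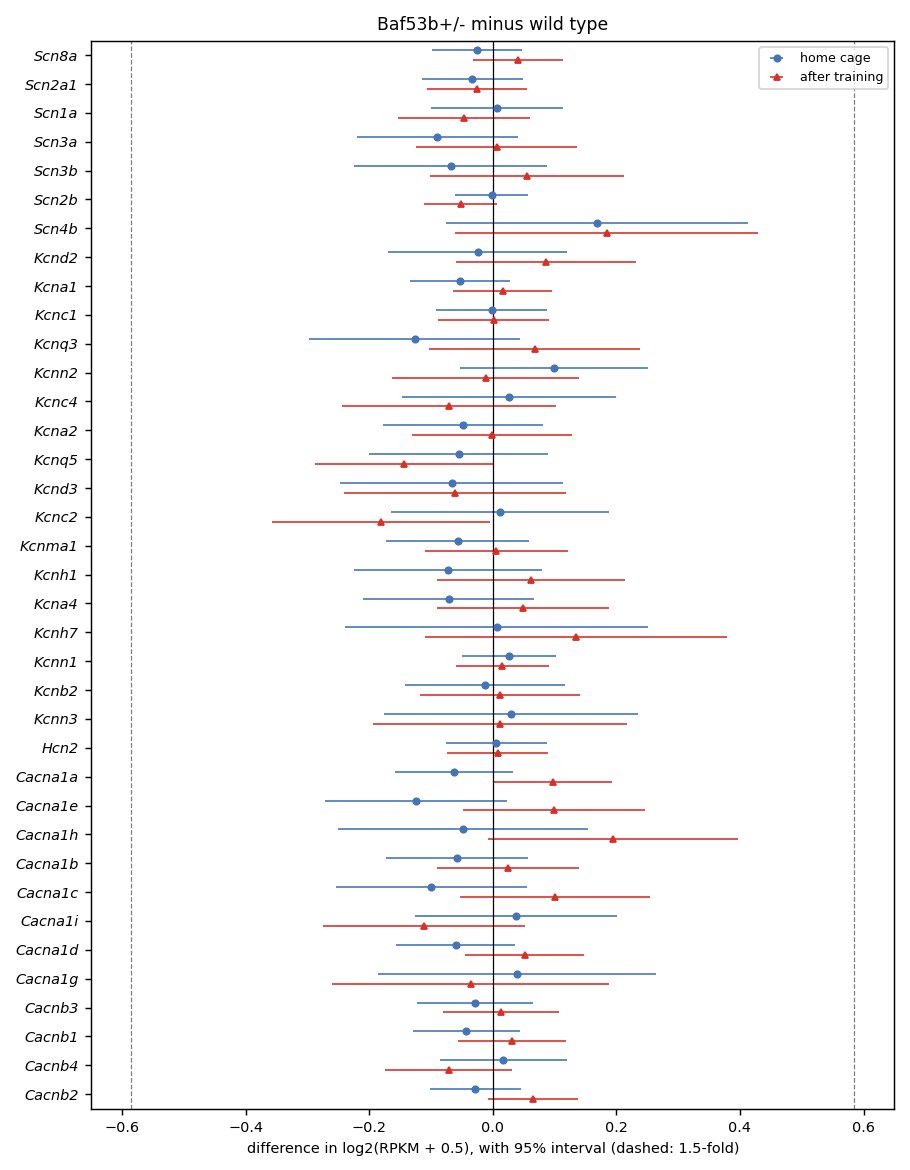
Difference between Baf53b+/- and wild-type mice in log2(RPKM + 0.5) for the 37 tested channel genes, with 95% intervals from limma, in the home cage (circles) and after training (triangles). No gene was called in either condition, and the interval that reaches farthest is that of Scn4b, to 0.41 in the home cage and 0.43 after training.

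The difference between the training responses of the genotypes was tested by their interaction, coded as the response in Baf53b+/- mice minus that in wild-type mice. Of the 37 channel genes 0 were called, as were 0% of all genes, and 2 (Cacna1a and Cacna1e) had an unadjusted p under 0.05, beside 2.49% of all genes. The median interaction was 0.05, beside -0.01 over all genes, and 11 of 37 were negative (29.7%, beside 55.8%). All 37 intervals lay inside a 1.5-fold change and 24 inside 1.25-fold, beside 11760 and 9736 of all 12399 genes.

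The 4 members with the smallest interaction p were all among the 12 calcium channel genes of the 37 tested, and none of them was called. Cacna1a had medians of 30.3 and 27.7 RPKM in home cage and trained wild-type mice and 28.1 and 30.0 in the heterozygotes. Its interaction was 0.16 (SE 0.07, 95% interval 0.02 to 0.30, limma adjusted p = 0.985). Cacna1e had medians of 27.7 and 25.8 RPKM in wild-type and 25.1 and 26.5 in heterozygous mice, with an interaction of 0.22 (SE 0.10, 95% interval 0.01 to 0.43, limma adjusted p = 0.985). Both genes had their lower median after training in wild-type mice and in the home cage in heterozygotes, with overlap in every pair of groups.

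Cacna1c (chromosome 6, 118542314 to 119146427 in mm9), the main L-type channel gene, had medians of 9.79 and 9.78 RPKM in wild-type mice and 9.57 and 9.88 in heterozygotes. Its interaction of 0.20 (SE 0.11, limma adjusted p = 0.985) was 0.13 with the dentate score in the fit. For Cacnb2 the interaction was 0.09 (SE 0.05, limma adjusted p = 0.985). Over the 8 calcium pore genes the median interaction was 0.14 with 2 negative, and the 2 were Cacna1g and Cacna1i. It was 0.06 for the 4 calcium beta genes, 0.04 for the 4 sodium pore genes and 0.02 for the 17 potassium genes. For the 3 sodium beta genes it was 0.01, and for Hcn2 0.0024. The median interaction was 0.23 for the 14 dentate markers and -0.11 for the 14 interneuron markers, with 0 called. Their part in the class medians was not tested. The summed calcium pore level was 113.3 ± 5.32 RPKM in heterozygous home cage and 119.2 ± 5.50 in heterozygous trained mice (SD, n = 6), beside 118.8 and 112.5 RPKM in the wild-type groups. The 4 groups overlapped in this sum, and since these comparisons share samples, the medians of the training, genotype and interaction differences are not separate results.

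Averaging over the other factor gave the narrowest intervals. For training, 0 of 37 channel genes were called by limma, where 4.17% of all genes were, and 3 (Kcnq5, Scn2a1 and Scn4b) had an unadjusted p under 0.05, beside 16.8% of all genes. The differences were -0.12 for Kcnq5 (SE 0.05, limma adjusted p = 0.182), -0.06 for Scn2a1 (SE 0.03, adjusted p = 0.254), 0.18 for Scn4b (SE 0.08, adjusted p = 0.284) and 0.12 for Cacna1i (SE 0.06, adjusted p = 0.299). For genotype, 0 were called, where 0.0242% of all genes were, and 1, Scn4b, had an unadjusted p under 0.05, beside 4.49% of all genes. Scn4b differed by 0.18 (SE 0.08, limma adjusted p = 0.999), or by 0.28 without the 6 libraries rich in choroid plexus markers. Kcnq5 differed by -0.10 (SE 0.05) and Kcnc2 by -0.08 (SE 0.06), the last being -0.05 without the wild-type trained animal 2421. Scn2b differed by -0.03 (SE 0.02), with an interval of -0.07 to 0.01, and by -0.01 without the 3 animals low on dentate markers. In both averages 36 of the 37 intervals lay inside a 1.25-fold change. Of all 12399 genes, 11770 did for training and 11900 for genotype.

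Beyond the 38, a list of 80 other channel subunit and channel-associated genes was found in the table, and 52 of them passed the filter. The 7 comparisons are given in the order training in wild-type and in heterozygous mice, genotype in the home cage and after training, interaction, and the averages over genotypes and conditions. Limma called 0 of the 52 in each, beside 1.08%, 1.03%, 0.00807%, 0.00807%, 0%, 4.17% and 0.0242% of all genes. At an unadjusted p under 0.05 there were 5, 2, 2, 1, 1, 2 and 2 of the 52. The shares of all genes were 11.1%, 11%, 3.52%, 3.69%, 2.49%, 16.8% and 4.49%. In wild-type training the smallest p belonged to Kcnh5, an EAG-family potassium channel gene, at -0.23 (SE 0.09, limma adjusted p = 0.305), and to Cacng8, a gene for an AMPA receptor auxiliary protein of the calcium channel gamma family, at -0.15 (SE 0.06, adjusted p = 0.35). In heterozygous training they belonged to Kcne1l, 0.20 (SE 0.07, adjusted p = 0.263), and Kcng4, 0.21 (SE 0.09, adjusted p = 0.358). The ERG-type Kcnh2 had the smallest p between genotypes in the home cage (0.16, SE 0.06, adjusted p = 0.999). Ank3, whose product ankyrin-G anchors sodium and M-type channels at the axon initial segment, had that of the interaction (0.12, SE 0.06, adjusted p = 0.985).

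Levels of 12 channel genes varied with the level of dentate gyrus markers among the libraries. A dentate score was computed as the mean log2(RPKM + 0.5) of 14 dentate gyrus markers relative to the median library, and its slope was fitted by limma with the 4 groups in the model. This fit was added after the data had been seen, and 12 marker lists were fitted in the same way. By it 12 of 37 channel genes were called (32.4%), 8 with a positive and 4 with a negative slope, where 17.3% of all genes were called, 8.18% positive and 9.07% negative. Of the other channel genes 22 of 52 were called.

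The low end of the score was held by 3 libraries. Animal 2415 (heterozygous, home cage) had a dentate score of -0.845, 2421 (wild type, trained) -0.425 and 2418 (wild type, home cage) -0.421, and in them 13, 9 and 11 of the 14 markers lay below all other mice of the group, while in animal 2421 a further 2 lay above them. No dentate marker was at 0 in these libraries, and their summed level was 157.6, 206.8 and 204.5 RPKM, beside 231.3 to 292.4 in the other mice of their groups. Their interneuron scores lay on the opposite side, at 0.384, 0.361 and 0.136. Of the 14 interneuron markers 9, 9 and 4 lay above all other mice of the group, and in animal 2421 1 lay below them. The summed interneuron marker level of animal 2421, 1323 RPKM, was within the 1213 to 1346 RPKM of the other mice of its group. Animal 2403, not among the 3, had an interneuron score of 0.138. Without animal 2415, 8 channel genes were called (21.6%, beside 7.7% of all genes), 7 of them among the 12. Without the 3 animals only Cacna1h was called (2.7% of the channel genes, beside 0.758% of all genes), and all 12 slopes kept their sign. The slopes of the 11 genes no longer called were in part smaller, as for Kcnc2 (-0.41), and in part larger, at -0.815 for Cacna1g and 0.59 for Kcnh1, with limma adjusted p from 0.252 to 0.777.

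Genes with positive slopes were the T-type Cacna1h, the beta subunit Scn3b, the A-type Kcnd2, Scn3a, Kcnh1, Kcnq3, Kcna4 and Kcna1. Cacna1h (chromosome 17, 25511388 to 25570728 in mm9) had 15.7, 15.4 and 15.7 RPKM in animals 2415, 2421 and 2418, below the lowest of the other mice in their groups, at 18.5, 16.9 and 18.2. Its slope was 0.66 log2 units per unit of score (SE 0.09, limma adjusted p = 2.59e-05) and lay between 0.61 and 0.93 when single libraries were left out. Scn3b (chromosome 9, 40076801 to 40099203 in mm9) had 67.6, 69.9 and 82.7 RPKM in these animals, each below the other mice of its group, and a slope of 0.51 (SE 0.08, adjusted p = 3.53e-05). Kcnd2 had 31.6, 30.4 and 34.7 RPKM, again below the others in each group, and a slope of 0.44 (SE 0.08, adjusted p = 0.000375).

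The other positive slopes were 0.42 for Scn3a, 0.42 for Kcnh1, 0.39 for Kcnq3, 0.31 for Kcna4 and 0.19 for Kcna1. None of these 5 genes was below the other mice of its group in all 3 animals. Scn3a, Kcnq3 and Kcna1 lay within the range of the others in animal 2421, as did Kcnh1 in animal 2418. Kcna4 had 10.0 RPKM in animal 2421, above the 9.03 of the highest other mouse of that group. Its slope was 0.12 without animal 2415 (limma adjusted p = 0.683), and that of Kcna1 was 0.11 (adjusted p = 0.479). The slope of Kcnq3 without that animal was 0.36 (adjusted p = 0.246).

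Genes with negative slopes were Cacna1g, Kcnc2, Cacna1i and Scn1a, so 2 of the 3 T-type genes lay opposite to Cacna1h. Kcnc2 had 20.6, 19.9 and 17.2 RPKM in animals 2415, 2421 and 2418, each above every other mouse of its group, and a slope of -0.58 (SE 0.08, limma adjusted p = 2.35e-05). Cacna1g (chromosome 11, 94269705 to 94335512 in mm9) had 6.81, 6.29 and 5.31 RPKM, above the others in the groups of 2415 and 2421 but not of 2418, and a slope of -0.65 (SE 0.13, adjusted p = 0.00093). Cacna1i had 8.16, 10.2 and 6.77 RPKM with a slope of -0.40 (SE 0.11, adjusted p = 0.0125), and Scn1a had 14.6, 15.3 and 13.6 RPKM with a slope of -0.26 (SE 0.07, adjusted p = 0.0142). Without animal 2415 these last slopes were the steeper, at -0.455 (adjusted p = 0.0949) and -0.29 (adjusted p = 0.106).

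On the score of 14 interneuron markers 10 of 37 channel genes were called (27%, beside 17.6% of all genes), 4 with a positive slope (9.82% of all genes) and 6 with a negative one (7.77%), and all 10 were among the 12 of the dentate score with the opposite sign. Kcnc2 had a slope of 0.91 on it and Cacna1h one of -1.01. On the striatum score 6 channel genes were called (16.2%, beside 8.8% of all genes), and on the other 9 scores 0 were. The share of all genes called on those was 3.93% for choroid plexus, 2.57% for thalamus, 0.0484% for CA1, 0.0645% for CA3, 3.63% for oligodendrocytes, 0.0645% for astrocytes, 0.0403% for microglia, 0.0968% for vessels and 0.00807% for neurons in general. The scores come from the same libraries, so the dentate and interneuron slopes are not separate results.

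**Figure D4:**
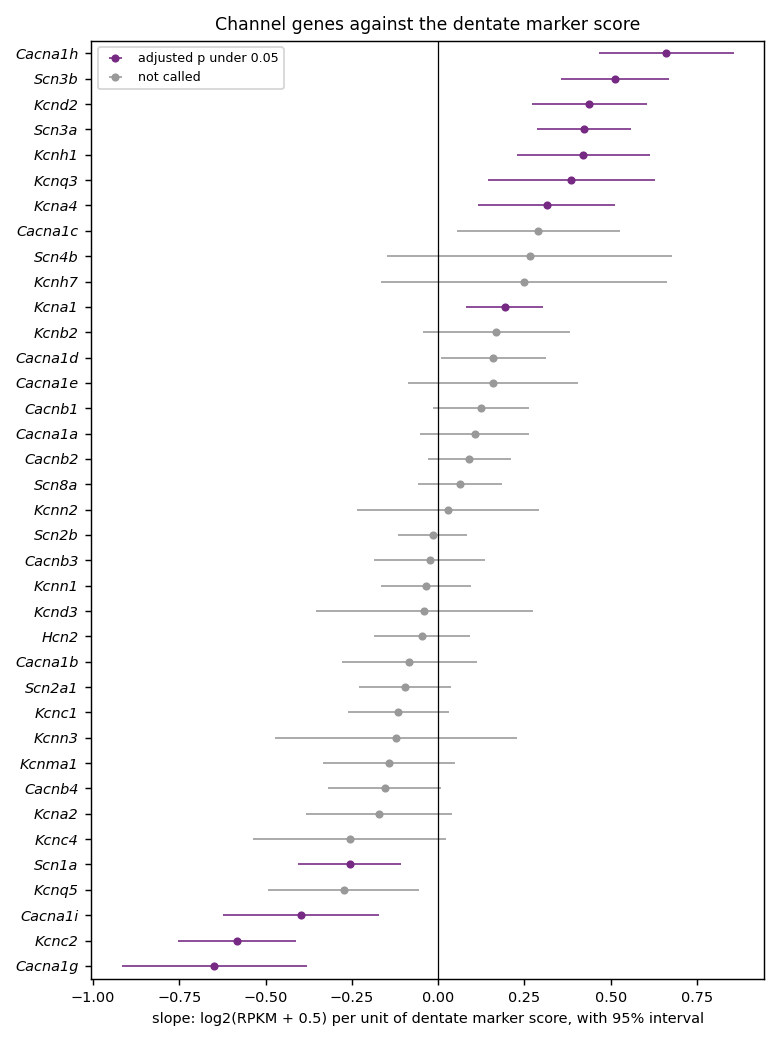
Slope of each of the 37 tested channel genes on the dentate marker score, in log2(RPKM + 0.5) per unit of score with 95% intervals from limma, sorted by slope. The 12 called genes (purple) run from 0.66 for Cacna1h to -0.65 for Cacna1g. Toward the middle they mix with genes not called. Cacna1c, not called, is at 0.29 beside 0.19 for the called Kcna1, and Kcnq5, not called, at -0.27 beside -0.26 for the called Scn1a.

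**Figure D5:**
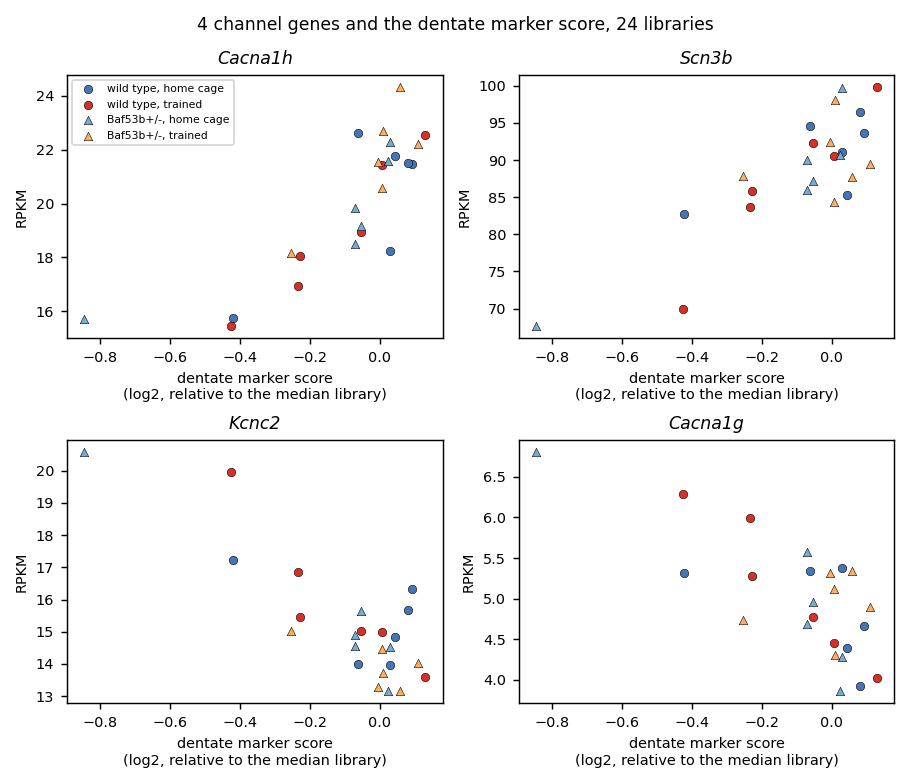
RPKM of Cacna1h, Scn3b, Kcnc2 and Cacna1g against the dentate marker score in 24 libraries, with colour and shape for the 4 groups. The 3 libraries with scores under -0.4 are low in Cacna1h and Scn3b and high in Kcnc2, and they come from 3 groups.

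Promoter sequences of channel genes with slopes in either direction are given as a description, and no link between sequence and slope was tested. RefSeq promoter windows (GRCm38.p6, 300 bases around each start) were matched for 29 of the 38 genes, in 44 windows. Shown are genes with 1 listed start, Kcnd2 (chr6:21215096-21215395, plus strand) and Kcna4 (chr2:107290339-107290638, plus strand) with positive and Scn1a (chr2:66440788-66441087, minus strand) and Cacna1i (chr15:80286988-80287287, plus strand) with negative slopes. Each is written 5′ to 3′ on the gene's strand, with the Sp1 box or the core of the cAMP response element (CRE) in capitals.
Kcnd2: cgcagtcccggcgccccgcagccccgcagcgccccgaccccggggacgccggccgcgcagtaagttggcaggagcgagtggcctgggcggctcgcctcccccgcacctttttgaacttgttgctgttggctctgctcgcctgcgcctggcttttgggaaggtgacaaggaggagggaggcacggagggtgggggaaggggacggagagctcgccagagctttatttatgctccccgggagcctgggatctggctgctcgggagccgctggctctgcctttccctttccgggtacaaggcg
Kcna4: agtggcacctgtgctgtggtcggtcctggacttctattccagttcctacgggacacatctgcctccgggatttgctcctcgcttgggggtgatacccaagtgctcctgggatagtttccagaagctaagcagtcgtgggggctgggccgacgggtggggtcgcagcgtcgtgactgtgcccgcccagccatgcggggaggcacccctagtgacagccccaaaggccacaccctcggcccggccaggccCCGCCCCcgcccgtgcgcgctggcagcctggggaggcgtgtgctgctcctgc
Scn1a: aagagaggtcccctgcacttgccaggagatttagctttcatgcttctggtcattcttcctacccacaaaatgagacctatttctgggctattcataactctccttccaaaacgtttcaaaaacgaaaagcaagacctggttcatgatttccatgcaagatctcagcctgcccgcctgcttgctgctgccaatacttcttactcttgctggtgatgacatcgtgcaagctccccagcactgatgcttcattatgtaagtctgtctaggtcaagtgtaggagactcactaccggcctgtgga
Cacna1i: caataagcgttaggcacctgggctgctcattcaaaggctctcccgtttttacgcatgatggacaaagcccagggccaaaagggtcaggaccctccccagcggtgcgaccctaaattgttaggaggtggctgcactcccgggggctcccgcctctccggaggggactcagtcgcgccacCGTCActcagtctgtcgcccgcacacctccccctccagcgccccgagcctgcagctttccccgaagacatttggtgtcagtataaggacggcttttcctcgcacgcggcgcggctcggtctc

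In these windows Kcna4 holds 1 Sp1 box and Cacna1i 1 CRE core, both on the reverse strand, while Kcnd2 and Scn1a hold neither. The GC content was 68.7% in Kcnd2, 67.7% in Kcna4, 62.7% in Cacna1i and 47.3% in Scn1a. Over the 44 channel gene windows, searched on both strands, the median GC content was 63.3%, beside 52.7% over all 32851 windows. The Sp1 box GGGGCGG was in 12 of the 44 (27.3%, beside 23.2% of all windows) and the CRE core TGACG in 7 (15.9%, beside 20.8%). The full CRE TGACGTCA, which contains the core, was in 0 of the 44 (1.79% of all windows), as was the CArG box (1.63% of all windows). A match is a string of letters and not a measured binding site.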

How the data were processed

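RNA from the dorsal hippocampus of both sides of 24 mice was sequenced as TruSeq v2 libraries that keep no strand, per the labels' protocols. The groups were mixed in sequencing pools, and no pool is named per animal in the labels, so no batch was fitted. RPKM values as deposited, 1 column per mouse with mm9 positions, were the starting point. CASAVA 1.8.2 and Bowtie 0.12.8 are named in the submitters' processing notes.

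The log2 of RPKM plus a pseudocount of 0.5 was fitted by limma 3.58.1 in R 4.3.3. The 12399 genes that averaged 1 RPKM or more over all libraries were kept. All 4 groups were in 1 model with trend and robust settings. Adjusted p-values are Benjamini-Hochberg over all genes tested, called under 0.05. A fold change on this scale understates the change of low genes. Depth came from RPKM steps in 971 single-exon genes, where 46.3% to 56.6% of values lay within 0.05 reads of whole reads at the total chosen, and no count test was run. The fits were tested on simulated data with known differences and slopes. Noise in those data was independent between genes, so shifts shared by many genes of a library were not covered.

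The channel genes and all lists were chosen with earlier results of these data known. Full statistics were given for called members, or otherwise for the 4 with the smallest p in a comparison. Other channel genes were named by p, at most 4 per comparison. The slopes on marker scores and the fits without the 3 animals low on dentate markers (score more than 0.4 under the median) were chosen after the data had been seen. The planned marker names Nectin3 and Map2 and 1 other channel name had no single entry in the table. Protein sequences were not used here.

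Alternatives were pseudocounts of 0.1 and 1, no filter and a filter of 5 RPKM, quantile and median normalization, no trend or robust settings, only the groups compared, scores or sex as covariates, and leaving out libraries.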

Additional observations from a re-analysis of the deposited data

Results flagged for a closer look

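A value was set apart here when the gap between the highest or lowest mouse of a group and its nearest neighbour took up more of the group's range than Dixon's limit allows. Of 152 combinations of channel gene and group, 9 did so (5.92%), where chance gives about 1 in 20.

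Animal 2415, in the heterozygous home cage group, accounts for 4 of the 9. It was lowest for Scn3a at 4.56 RPKM, with the next mouse at 5.73. It was highest for the interneuron channel gene Kcnc2 at 20.6 RPKM, with the next at 15.7, and for the T-type gene Cacna1i at 8.16 RPKM, with the next at 6.99. It was also highest for Hcn4, at 0.731 RPKM beside 0.449. Its dentate marker score of -0.845 was likewise apart from its group, whose next value was -0.072.

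The other 5 belong to 5 animals. Kcna1 was 34.05 RPKM in the wild-type trained animal 2403 (next 36.9). Kcnb2 was 3.76 RPKM in the wild-type home cage animal 2405 (next 3.10), and Kcnn3 was 3.12 RPKM in animal 2425 of that group (next 2.48), a library rich in choroid plexus RNA. In heterozygous trained mice Kcnc4 was 22.2 RPKM in animal 2410 (next 18.7) and Kcnq3 was 17.5 RPKM in animal 2429 (next 22.8), another library rich in choroid plexus RNA. The dentate score was apart at -0.421 in the wild-type home cage animal 2418 and at -0.253 in the heterozygous trained animal 2416.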

How the results depend on the processing

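In the alternatives run and with any 1 library left out, 0 channel genes were called in each of the 7 comparisons, and no result reversed. Genes called over the whole table moved as follows. For training in wild type, 134 became 83 with a filter of 5 RPKM, 75 with only the groups compared and 65 without the choroid-rich libraries. For training in heterozygotes, 128 became 84, 85 and 51 under the same settings. For training averaged over genotypes, 517 became 339 with the filter of 5 RPKM and 262 without the choroid-rich libraries. For genotype after training, 1 became 2 with a pseudocount of 1, median centring, no trend or robust settings, the dentate score as covariate, or without the dentate-low animals. For genotype averaged over conditions, 3 became 5 with no filter and 1 with the filter of 5 RPKM. On the dentate score, 12 channel genes became 1 and 2139 genes became 94 without the dentate-low animals. The cause of these moves was not tested. Some of these fits hold fewer libraries or genes than the main one.

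With single libraries left out, genes called ranged from 92 to 160 for training in wild type, 96 to 142 in heterozygotes, 415 to 541 for the average, 1 to 2 for genotype after training (2 without any of animals 2405, 2421, 2400, 2401 and 2424), 2 to 4 for the genotype average and 955 to 2197 for the dentate slope, the 955 without animal 2415. Channel genes called on that slope ranged from 8 to 13. Without the choroid-rich libraries the Kcna4 slope was 0.29 (limma adjusted p = 0.076). No paired analysis was possible because each replicate number belongs to 1 animal and no number is shared between groups. With 6 mice a group the 95% intervals of the 37 channel genes reached a median of 0.13 log2 units to either side in the 2-group comparisons and 0.18 in the interaction.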
